A study of Mus musculus with 6 samples.

Results

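The genes described here are 35 members of the amino acid and endoplasmic reticulum (ER) stress responses. They were chosen by name, with earlier results of these data known. They were measured in mouse embryonic stem cells with and without a truncation of the protein Dido3. All 35 were found among the 18193 genes that the array platform's annotation names. Of these, 19 belong to the amino acid arm that the transcription factor ATF4 drives, and 16 to the arm that answers unfolded protein in the ER. Each gene was read by 1 probe set, the one with the highest mean over all arrays; the other probe sets of a gene served as a check.

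The wild-type group held 3 cultures of wild-type embryonic stem cells, and the truncated group held 3 cultures of embryonic stem cells with the C-terminal truncation Dido3deltaCT. All 6 were cultured with LIF (leukemia inhibitory factor), a cytokine that holds mouse embryonic stem cells in self-renewal, and no stress agent is named in the labels for either group. Total RNA of each culture was labelled with biotin and hybridised to 1 Affymetrix mouse genome expression array. The labels do not give the number of independent cell lines in a group, so the p-values measure the spread between these samples, which may be cultures of 1 line.

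Cells respond to a lack of amino acids, to unfolded protein in the ER and to some other stresses by phosphorylating the translation factor eIF2, which slows most translation but favours that of Atf4 mRNA. ATF4 then activates genes for amino acid uptake and synthesis, for charging tRNAs, and for feedback on the response itself. Unfolded protein in the ER is sensed by 3 membrane proteins, encoded by Eif2ak3 (PERK), Ern1 (IRE1) and Atf6; IRE1 and ATF6 act mainly on genes for ER chaperones and for disposal of misfolded protein, IRE1 through the factor XBP1. ER chaperones fold proteins bound for secretion and the cell surface.

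All values are log2 expression per probe set as deposited, so a difference of 1 is a 2-fold change. A difference is the mean of the truncated arrays minus the mean of the wild-type arrays, with its standard error (SE) from limma, and a gene was called changed at an adjusted p below 0.05 (Benjamini-Hochberg over all genes). A gene was taken as expressed above 4.82, the median of all probe sets. By that limit 34 of the 35 members were expressed; the exception was Slc7a11.

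The arrays differed in some ways that the groups do not explain and in others that follow the groups. The 12 stem cell markers averaged 10.78 to 11.02 over the arrays, and all 12 were expressed. Single markers differed between the groups. Fgf4 fell by 1.46 in truncated cells (limma adjusted p = 0.0329), the 1 marker called. Groups were apart for 5 of the 12 in the higher and 3 in the lower direction, against 13.7% and 15.1% of expressed genes. Of 23 fibroblast markers, 22 were expressed and 1 (Lum) was below the limit; their mean ran from 6.13 to 9.10 in wild-type and from 7.25 to 8.52 in truncated arrays. It was lowest on wild-type replicate 3 and truncated replicate 2, the same 2 arrays on which the 24 poly-A spike-in controls averaged 12.1 and 12.5, against 6.12 to 7.85 on the others. These 2 are called the high-spike arrays or pair below, and the other 4 the low-spike arrays. In bulk RNA, fewer cells of a type and less RNA per cell cannot be told apart. The probe set of Dido1, the gene that encodes Dido3, fell from 8.38 to 6.88 (adjusted p = 0.0104); where it lies relative to the removed part was not analysed here. The groups also differed in sex-linked RNA. All 3 expressed Y-linked genes fell in truncated cells, and the other 2 measured were below the expression limit. Of 374 expressed X-linked genes, 321 had a difference above 0. This difference in sex-linked RNA follows the groups, so for any gene below its part cannot be told apart from that of the truncation.

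Between truncated and wild-type cells, 1 of the 35 members passed the test. Creld2, an ER-resident factor induced by unfolded protein, rose by 0.61 (SE 0.11), or 1.53-fold, with a limma adjusted p of 0.0263. Over all genes 4.67% were called (2.70% higher, 1.97% lower), and among the 11728 expressed genes 6.53% (3.67% higher, 2.86% lower), so 1 of 35 was not above the background. None of the 19 amino acid members passed in the limma fit; at an unadjusted p below 0.05 there were 2 lower (Trib3 and Cebpg) and 1 higher (Slc7a3). Among expressed genes, 13.1% were lower and 11.9% higher at that level. The median difference was −0.27 for the amino acid members and −0.02 for the ER members, against −0.01 for all expressed genes, of which 48.2% had a difference above 0.

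**Figure D1:**
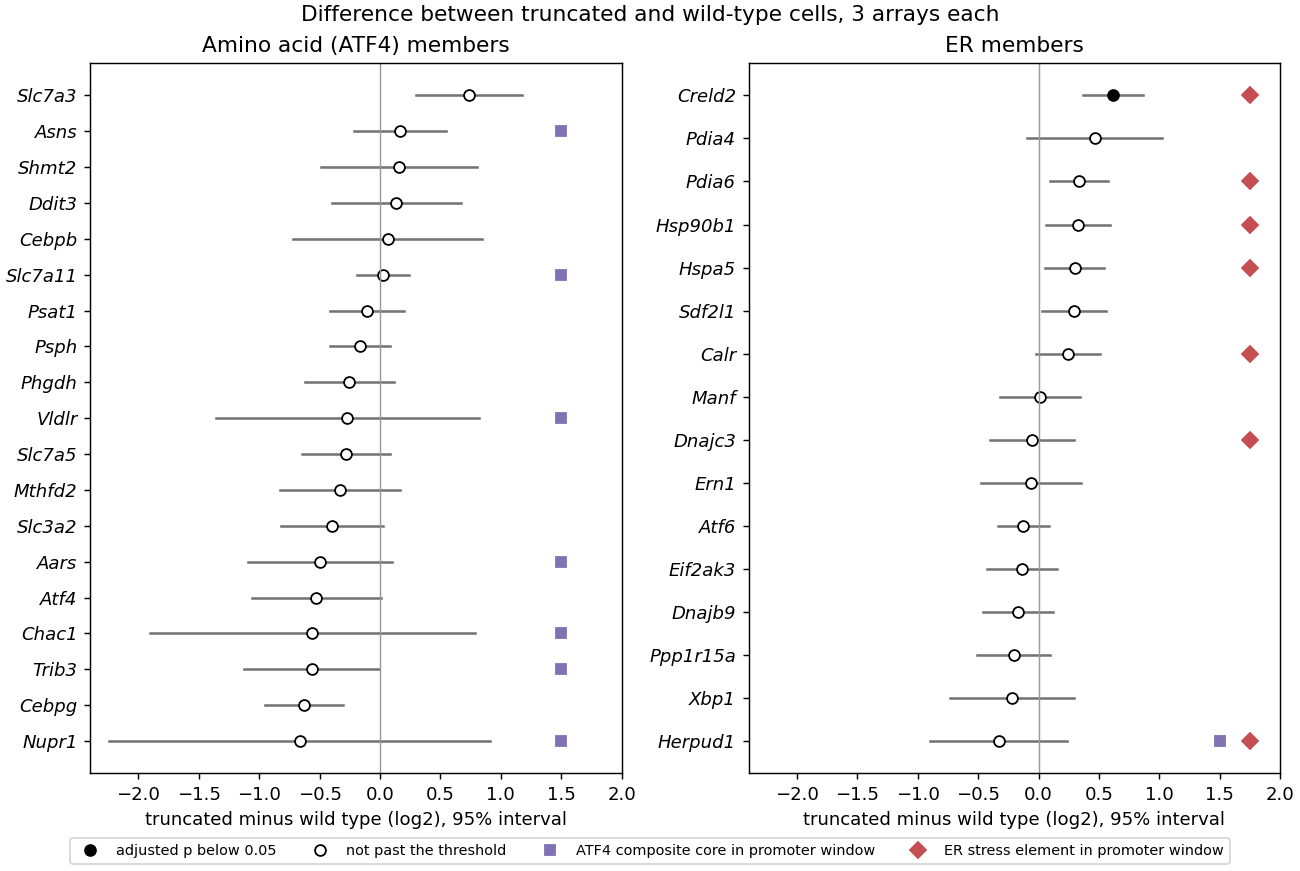
Difference between truncated and wild-type cells for each member (x axis, log2, with its 95% interval from limma), sorted within the amino acid members (left) and the ER members (right); filled points passed an adjusted p of 0.05. The filled point is Creld2 at 0.61; squares mark genes with an ATF4 composite core and diamonds those with an ER stress element of either kind in the RefSeq promoter window.

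The ER members divided by role. Of the 11 genes for chaperones, folding enzymes and disposal, 8 had a difference above 0, with a median of 0.30, and for 6 of them every truncated array lay above every wild-type array. Among expressed genes 48.2% had a difference above 0 and 13.7% had groups apart in that direction. Because the members were chosen with earlier results known, this comparison is a description and was not tested. The 5 genes for sensors, the factor XBP1 and the eIF2 phosphatase subunit all had a difference below 0, with a median of −0.14 and none past the threshold, adjusted or unadjusted, in the limma fit.

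Creld2 (probe set 1452754_at) was at 8.94, 8.86 and 8.72 on the wild-type arrays and at 9.48, 9.33 and 9.56 on the truncated arrays. The groups did not overlap, and the gap between them was wider than the range within either. The difference was 0.62 among the low-spike arrays and 0.61 between the high-spike pair, as large within each kind of array. The call was lost, with the size kept, without wild-type replicate 2 (adjusted p = 0.0992), truncated replicate 1 (0.124) or truncated replicate 3 (0.118). Creld2 had no second probe set.

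Hspa5, which encodes BiP, the main ER chaperone and the partner that holds the sensors inactive, was at 11.41, 11.24 and 11.49 in wild-type and at 11.64, 11.63 and 11.76 in truncated cells. All 3 truncated values lay above the wild-type range, by a small margin. The difference of 0.30 (SE 0.10; 95% interval 0.06 to 0.54) did not pass (adjusted p = 0.177). A second probe set, 1427464_s_at, differed by 0.36 with groups apart, while 1447824_x_at differed by 0.0003.

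Hsp90b1, the ER form of the chaperone HSP90, was at 10.68, 10.55 and 10.66 in wild-type and at 10.84, 11.14 and 10.89 in truncated cells. The groups did not overlap, and truncated replicate 2, a high-spike array, was the highest. The difference was 0.33 (SE 0.11; adjusted p = 0.171), and its second probe set differed by 0.54 in the same direction.

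Pdia6, a protein disulfide isomerase that makes and rearranges disulfide bonds, was at 9.52, 9.29 and 9.33 in wild-type and at 9.65, 9.70 and 9.80 in truncated cells. Its groups did not overlap either, with a difference of 0.34 (SE 0.10; adjusted p = 0.127). Calr, the lectin chaperone calreticulin, differed by 0.24 (adjusted p = 0.32), and its truncated arrays were close together at 11.36, 11.36 and 11.37. Sdf2l1, a cofactor of BiP, was at 6.94, 6.96 and 6.92 in wild-type and at 7.13, 7.13 and 7.45 in truncated cells, a difference of 0.30 (adjusted p = 0.218). In each of these genes the truncated values were all higher, by less than the test required. A fit that left out probe sets able to cross-hybridise held no probe set of Hspa5, Hsp90b1 or Calr. It kept Pdia6 at 0.34 and Sdf2l1 at 0.30.

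Pdia4, another disulfide isomerase, differed by 0.47 (SE 0.24; adjusted p = 0.367) with overlapping groups. Its wild-type values were 8.74, 8.65 and 7.97, and the low one was the high-spike array. With spike-in level as a block its difference passed (adjusted p = 0.0471), and within low-spike arrays it was 0.37 and within the high-spike pair 0.65. Without wild-type replicate 3 it was 0.22. Manf, a secreted ER protein, differed by 0.01 with a 95% interval of −0.32 to 0.34. Dnajb9 and Dnajc3, co-chaperones of BiP, differed by −0.17 and −0.05. For Dnajc3 the other 3 expressed probe sets differed by 0.21 to 0.39, in the opposite direction, and none passed.

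Herpud1, of the machinery that hands misfolded ER protein to the proteasome, was at 7.70, 7.88 and 6.93 in wild-type and at 7.25, 7.09 and 7.19 in truncated cells. Wild-type replicate 3 was low, the other 2 wild-type arrays were above all truncated ones, and the groups overlapped through that 1 array. The difference was −0.33 (adjusted p = 0.562); without wild-type replicate 3 it was −0.62 with an adjusted p of 0.0269. Within the high-spike pair it was 0.16.

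Promoter sequence was not read when the members were chosen. They were chosen by name as genes of these responses. How often they hold a site of these responses is therefore not independent of that choice, and it was not tested. RefSeq promoter windows (assembly GRCm38.p6, 250 bases before to 50 after the gene's start) were matched for 31 members, 17 amino acid and 14 ER. The ER stress element, CCAAT followed after 9 bases by CCACG, is the sequence that ATF6, with the factor NF-Y, is known to bind. Searched on both strands, it was in the windows of 6 of the 14 ER members, in 0 of the 17 amino acid members, and in 37 of 27025 genes with a window (0.137%). The sites are shown because 5 of the 6 genes that carry one were among those whose truncated arrays all lay above the wild-type arrays. Each is given on the gene's strand, 5′ to 3′, with the element in capitals (its reverse complement for Creld2, Calr and the second site of Hsp90b1) and 20 bases on either side.
Creld2 (chr15:88819500-88819558, plus strand): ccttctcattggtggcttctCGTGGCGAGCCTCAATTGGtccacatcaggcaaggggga
Hspa5 (chr2:34772005-34772063, plus strand): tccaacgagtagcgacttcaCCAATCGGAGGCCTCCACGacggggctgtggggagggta
Pdia6 (chr12:17266471-17266529, plus strand): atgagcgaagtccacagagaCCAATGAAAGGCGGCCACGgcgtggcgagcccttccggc
Hsp90b1, first site (chr10:86705618-86705676, minus strand): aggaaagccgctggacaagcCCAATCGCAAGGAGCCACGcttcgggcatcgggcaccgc
Hsp90b1, second site (chr10:86705513-86705571, minus strand): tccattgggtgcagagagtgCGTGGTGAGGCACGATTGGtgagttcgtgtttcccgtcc
Calr (chr8:84847055-84847113, minus strand): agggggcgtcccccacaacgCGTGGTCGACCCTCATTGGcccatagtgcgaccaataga
Dnajc3 (chr14:118937807-118937865, plus strand): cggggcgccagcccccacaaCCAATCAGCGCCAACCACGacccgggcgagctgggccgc

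The 6 ER members with the element had a median difference of 0.31, with 5 of 6 above 0. The 8 matched ER members without it had a median of −0.15, with 2 of 8 above 0 (Pdia4 and Sdf2l1), and 1 of the 8 had groups apart in the higher direction. Every gene with it was a chaperone or folding gene, whereas those without it included Ern1, Eif2ak3, Xbp1 and Ppp1r15a, all below 0. The comparison thus cannot be told apart from the division by role. The matched folding and disposal genes without it were Pdia4 (0.47), Sdf2l1 (0.30), Dnajb9 (−0.17) and Herpud1 (−0.33). Herpud1 carries ER stress element II, described below. The comparison describes 14 genes and was not tested. The element was also in the windows of 10 expressed genes outside the 35, of which 6 had a difference above 0, with a median of 0.03.

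The upstream part of the Creld2 window is given whole, since Creld2 is the member that passed the test. It spans chr15:88819396-88819645 (GRCm38.p6, plus strand), from 250 bases before the start to the base before it, with the ER stress element in capitals.
Creld2 upstream window: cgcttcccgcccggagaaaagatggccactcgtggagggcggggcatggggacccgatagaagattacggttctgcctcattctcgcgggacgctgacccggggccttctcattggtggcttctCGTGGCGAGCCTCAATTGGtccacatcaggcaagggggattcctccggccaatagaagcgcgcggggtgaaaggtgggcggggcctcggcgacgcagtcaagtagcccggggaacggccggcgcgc

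No sensor had a difference that passed. Atf6 was at 6.21, 6.13 and 6.05 in wild-type and at 6.03, 6.05 and 5.94 in truncated cells, groups that touched without overlapping, with a difference of −0.13 (adjusted p = 0.549). Ern1 differed by −0.06 (95% interval −0.47 to 0.35), and Eif2ak3 by −0.14 (−0.43 to 0.15). Xbp1 was at 9.87, 10.01 and 10.61 in wild-type and at 9.80, 10.21 and 9.81 in truncated cells, with the high-spike array the highest of each group and a difference of −0.22 (adjusted p = 0.689). Xbp1 is regulated by splicing of its mRNA, which these probe sets were not used to measure. Ppp1r15a, the stress-induced subunit that brings a phosphatase to eIF2 and so ends the response, differed by −0.21 (adjusted p = 0.475).

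Of the 19 amino acid members, 13 had a difference below 0, and none passed. For 4 of them the truncated arrays all lay below the wild-type arrays (Cebpg, Trib3, Phgdh and Psph), against 15.1% of expressed genes. The other expressed probe sets of Cebpg, Trib3 and Phgdh had overlapping groups, and Psph had no other probe set. The probe sets used for Trib3 and Phgdh are of a kind that can cross-hybridise. The lowest medians were those of the 7 transcription factors and feedback genes (−0.56), followed by the tRNA synthetase gene Aars (−0.50), the 5 transporters and receptor (−0.27) and the 6 enzymes (−0.13).

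**Figure D2:**
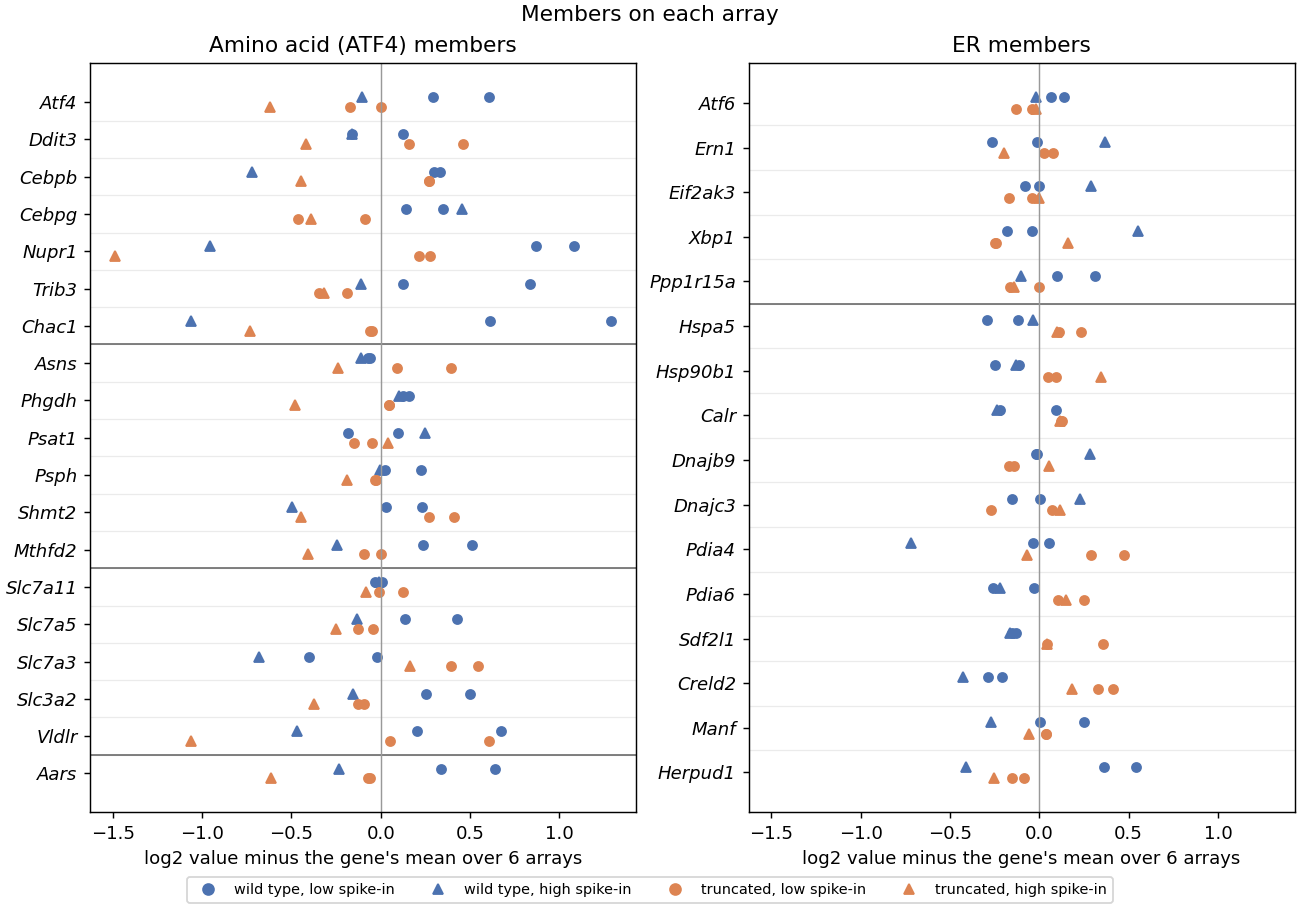
Each array's log2 value minus the gene's mean over the 6 arrays (x axis), for the amino acid members (left) and the ER members (right), with horizontal lines between roles. Circles are low and triangles high-spike arrays; for Nupr1 both triangles lie far to the left of the circles, while for Creld2 the colours separate on both kinds of array.

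Atf4 (probe set 1448135_at) was at 10.15, 10.47 and 9.76 in wild-type and at 9.86, 9.24 and 9.69 in truncated cells. The groups overlapped, since wild-type replicate 3 lay below truncated replicate 1, and the lowest value of each group was its high-spike array. The difference was −0.53 (SE 0.22; adjusted p = 0.276). Low-spike arrays alone gave −0.53 and the high-spike pair −0.51, and with spike-in level as a block the adjusted p was 0.0421. Without truncated replicate 2 it was −0.35, and without wild-type replicate 2 −0.36. A second probe set, 1438992_x_at, was at 8.37, 8.52 and 8.71 in wild-type and at 7.57, 7.38 and 7.47 in truncated cells, groups far apart. It fell by 1.06 on the log2 scale (SE 0.11; limma adjusted p = 0.00757 over all probe sets, of which 2.80% were called). Names with this ending mark probe sets that can cross-hybridise, and the third probe set, 1439258_at, differed by 0.29 (adjusted p = 0.546). ATF4 is controlled largely by translation, so its mRNA level is not a measure of the protein.

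Cebpg, a partner of ATF4 at its target genes, was at 7.16, 7.37 and 7.48 in wild-type and at 6.56, 6.64 and 6.94 in truncated cells. No array of 1 group reached the range of the other, and the high-spike arrays were not the lowest. The difference of −0.63 (SE 0.14), or 1.55-fold lower, had an adjusted p of 0.0531, which passed in 5 of 18 alternatives (0.0223 to 0.205 over all). The expressed probe set 1451639_at of Cebpg differed by 0.05. It gave the same value, 6.1709, on each wild-type array and on truncated replicate 1, so it is a weak check.

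Trib3, a pseudokinase that ATF4 induces and that restrains ATF4, was at 7.85, 8.56 and 7.61 in wild-type and at 7.53, 7.40 and 7.37 in truncated cells. The groups were apart, though wild-type replicate 2 alone accounted for much of the distance: the difference was −0.57 (SE 0.23; adjusted p = 0.262) with it and −0.29 without it.

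Nupr1, a small stress-induced chromatin protein, was at 8.72, 8.93 and 6.90 in wild-type and at 8.13, 6.37 and 8.07 in truncated cells. The high-spike array minus the low-spike arrays was −1.93 in wild-type and −1.73 in truncated cells, more than the difference between groups, −0.67 (SE 0.67; adjusted p = 0.698). Low-spike arrays differed by −0.73 and the high-spike pair by −0.53; with spike-in level as a block the adjusted p was 0.0149. Single arrays moved the difference from −1.31 (without wild-type replicate 3) to −0.0884 (without truncated replicate 2), and it was −0.40 and −0.29 without wild-type replicates 1 and 2, with no adjusted p past the threshold.

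Chac1, which degrades glutathione and is a sensitive ATF4 target, had the widest wild-type range of the 35 genes, 8.19, 8.87 and 6.51, against 7.53, 6.84 and 7.52 in truncated cells. The groups overlapped, and the sign of the difference depended on the kind of array: −1.005 among low-spike arrays and 0.33 between the high-spike pair. Over all arrays it was −0.56 (SE 0.57; adjusted p = 0.702), −1.23 without wild-type replicate 3 and −0.06 without wild-type replicate 2.

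Ddit3, which encodes the factor CHOP, and Cebpb differed by 0.14 and 0.06 (adjusted p = 0.834 and 0.958). CHOP is the factor that links a prolonged response to cell death, and its wild-type values of 6.97, 7.26 and 6.97 lay within the truncated range of 6.72 to 7.60. The 95% interval for Ddit3 was −0.39 to 0.67.

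**Figure D3:**
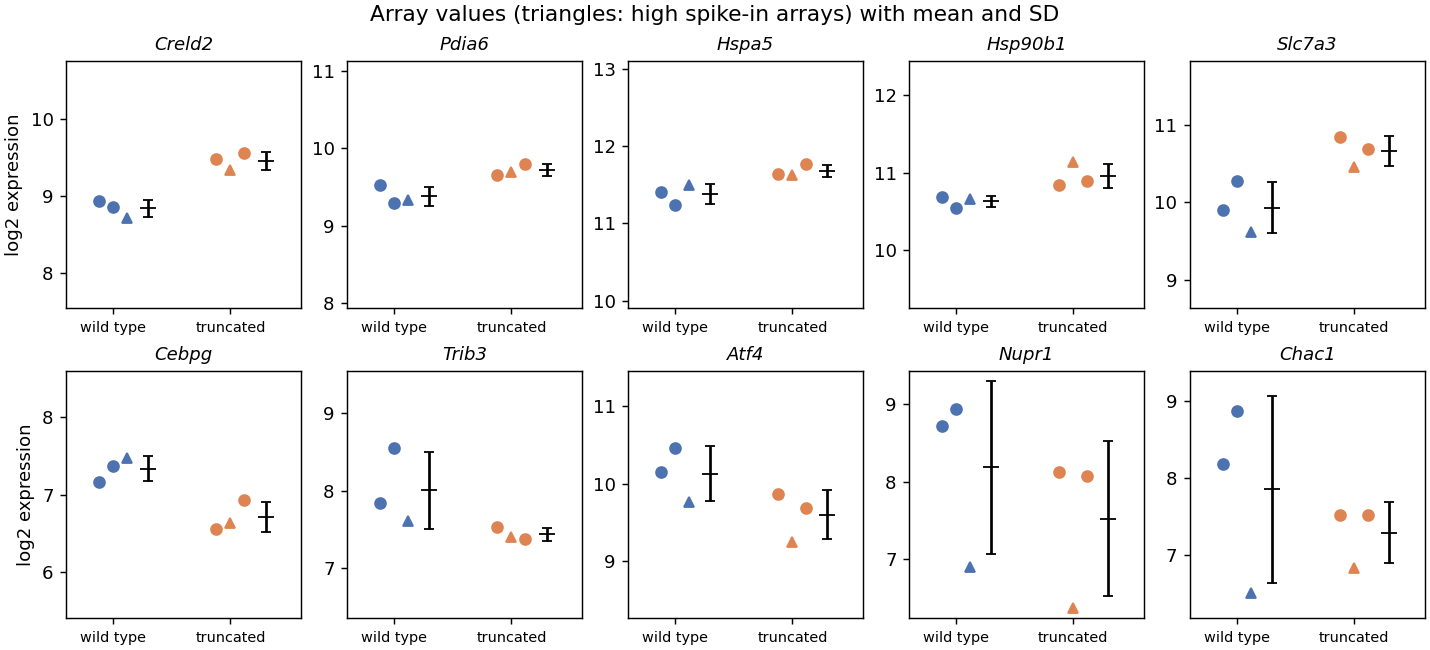
Log2 expression (y axis, each panel spanning the same range) of 10 members on each wild-type and truncated array, with the group mean and SD (n = 3) beside the points; triangles are high-spike arrays. Creld2 stands at 8.72 to 8.94 in wild-type and 9.33 to 9.56 in truncated cells, while Nupr1 and Chac1 vary more within the wild-type group than between groups.

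ATF4 binds a composite site that joins a C/EBP and an ATF motif, with the core TGATGNAA. On either strand this core was in the windows of 7 of the 17 matched amino acid members and 1 of the 14 ER members (Herpud1), against 4.51% of all 27025 genes and 2.62% of the 9472 expressed genes with a window. It did not overlap any of the other motifs. As with the ER stress element, its share among the members is not independent of how they were chosen. One site each is shown for 6 of these 8 genes whose array values are given, leaving out a second core of Aars and the cores of Slc7a11 and Vldlr, on the gene's strand with the core or its reverse complement in capitals.
Nupr1 (chr7:126625553-126625600, minus strand): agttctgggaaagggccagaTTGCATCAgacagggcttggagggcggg
Chac1 (chr2:119351029-119351076, plus strand): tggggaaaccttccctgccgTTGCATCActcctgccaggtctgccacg
Aars (chr8:111033710-111033757, plus strand): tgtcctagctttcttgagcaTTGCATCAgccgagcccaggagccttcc
Asns (chr6:7693210-7693252, minus strand): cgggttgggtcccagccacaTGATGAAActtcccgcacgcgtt
Trib3 (chr2:152344028-152344057, minus strand): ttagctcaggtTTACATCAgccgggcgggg
Herpud1 (chr8:94386297-94386344, plus strand): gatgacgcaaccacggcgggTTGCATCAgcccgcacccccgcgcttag

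Herpud1 was the member that carried a site of both kinds. Besides the ATF4 core it held ER stress element II, ATTGG and CCACG with 1 base between, which was in 12 of 27025 windows (0.0444%) and in no other member.
Herpud1, second site (chr8:94386357-94386407, plus strand): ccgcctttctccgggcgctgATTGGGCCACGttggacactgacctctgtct
The amino acid members with the ATF4 core had a median difference of −0.50, with 2 of 7 above 0, and the 10 matched members without it a median of −0.21, with 3 of 10 above 0. Among 241 expressed genes outside the 35 that held the core, the median difference was −0.03. The unfolded protein response element TGACGTGG was in 0.714% of all windows and in none of the members' windows.

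No biosynthetic enzyme had a difference that passed. Asns, asparagine synthetase and the classical target of amino acid starvation, was at 11.45, 11.46 and 11.41 in wild-type and at 11.61, 11.28 and 11.91 in truncated cells, with the truncated values on both sides of the wild-type range and a difference of 0.16 (adjusted p = 0.692). The 3 enzymes that make serine, Phgdh, Psat1 and Psph, differed by −0.26, −0.11 and −0.16. For Phgdh the groups did not overlap (9.87, 9.90 and 9.84 against 9.79, 9.27 and 9.79), but the low truncated value was the high-spike array, and within the other arrays the difference was −0.09. Of the mitochondrial enzymes that pass serine's carbon to folate, Shmt2 differed by 0.16 and Mthfd2 by −0.33 (adjusted p = 0.845 and 0.484). Aars, which charges tRNA with alanine, was at 10.66, 10.96 and 10.09 in wild-type and at 10.26, 9.70 and 10.25 in truncated cells. Its high-spike array was the lowest in both groups, and its difference of −0.50 (adjusted p = 0.37) passed with spike-in level as a block (adjusted p = 0.0442). It was −0.30 without wild-type replicate 2 and −0.31 without truncated replicate 2.

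Of the 5 transporters and receptor, 2 had a difference above 0, Slc7a3 and Slc7a11. Slc7a3, a carrier of cationic amino acids such as arginine, was at 9.90, 10.28 and 9.61 in wild-type and at 10.84, 10.46 and 10.69 in truncated cells. The truncated arrays were all higher, and within each group the high-spike array was the lowest. The difference was 0.74 (SE 0.19), or 1.67-fold higher, with an adjusted p of 0.081; low-spike arrays differed by 0.68 and the high-spike pair by 0.85, and it passed with spike-in level as a block (0.0217). Slc7a3 is the X-linked member. The 374 expressed X-linked genes had a median difference of 0.47 and 30.5% of them were called higher, against −0.02 and 2.78% for autosomal genes, and the part of this in Slc7a3 was not tested.

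Slc7a5 and Slc3a2, the light and heavy chain of the large neutral amino acid transporter, differed by −0.28 and −0.40 (adjusted p = 0.401 and 0.305). Both had their highest value on wild-type replicate 2 and their lowest on truncated replicate 2. Slc7a11, the cystine carrier, was between 2.86 and 3.07 on all arrays, below the expression limit, where a difference was not measurable. Vldlr, a lipoprotein receptor that ATF4 induces, differed by −0.27 with a 95% interval of −1.36 to 0.82.

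Other probe sets gave the same sign in most cases. The 35 genes had 82 probe sets, and 31 expressed ones besides those used above covered 19 genes. Of the 31, 23 differed in the same direction as the probe set used and 8 in the opposite one, in Atf4, Atf6, Cebpg, Dnajc3, Ern1 and Xbp1. The second probe set of Atf4 was the 1 of them that was called.

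Array-to-array variation in the amino acid members followed the high-spike arrays. In 16 of the 19, the high-spike array lay below the mean of the low-spike arrays of its own group, in both groups. The share among expressed genes was 34.5%. The medians of this distance were −0.53 in wild-type and −0.48 in truncated cells. Of the ER members, 8 of 16 did so, with medians of −0.05 in both groups. The fibroblast markers were lower on the same arrays in 23 of 23, so spike-in level and fibroblast RNA cannot be told apart here, and their part in the members' values was not tested. Within the low-spike arrays 19 of 23 fibroblast markers had a difference below 0 (median −0.58), and within the high-spike pair 4 of 23 (median 0.84). Over the same arrays the amino acid members had a difference below 0 in 14 of 19 and in 15 of 19, with medians of −0.15 and −0.20.

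**Figure D4:**
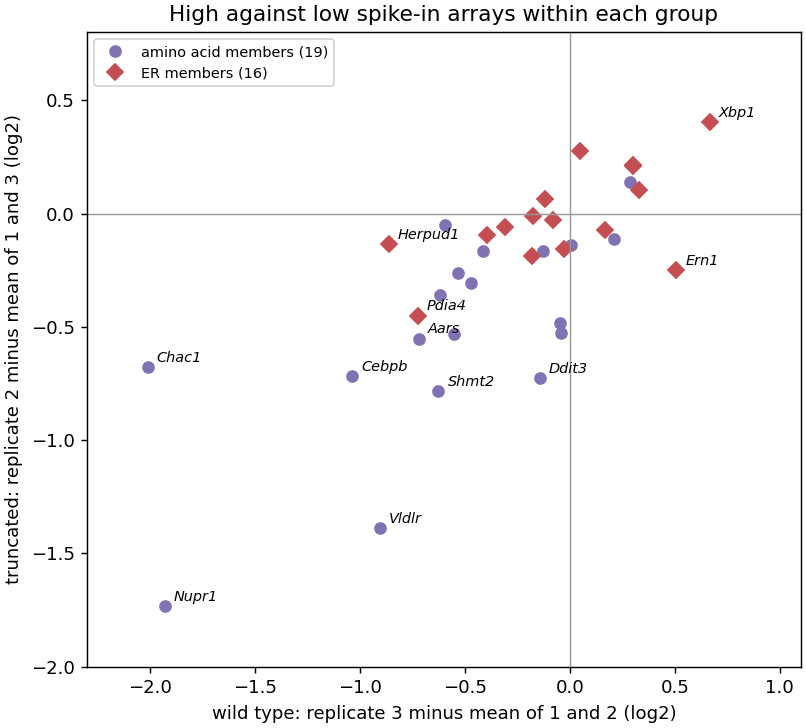
For each member, the high-spike array minus the mean of the low-spike arrays in wild-type cells (x axis) and in truncated cells (y axis), both log2. Amino acid members (circles) lie mostly in the lower left, led by Nupr1 at −1.93 and −1.73, whereas ER members (diamonds) scatter around 0 with Xbp1 the highest.

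With spike-in level as a block, 5 amino acid members passed, Nupr1, Cebpg, Atf4 and Aars lower and Slc7a3 higher, and 2 ER members, Creld2 and Pdia4, higher. In that fit 12.2% of expressed genes were called, 6.13% lower and 6.08% higher. The block was set by the spike-in controls alone.

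Set side by side, the amino acid members and the ER chaperones differed in opposite directions. Averaged over members as deviations from each gene's mean, the amino acid members stood at 0.15, 0.42 and −0.26 on the wild-type arrays and at 0.05, −0.44 and 0.08 on the truncated arrays. The chaperones, folding and disposal genes stood at 0.01, −0.10 and −0.19 and at 0.07, 0.07 and 0.14. The chaperone average was higher on every truncated array than on any wild-type array, while the amino acid average overlapped widely. The amino acid average minus the chaperone average was 0.14, 0.52 and −0.06 in wild-type and −0.02, −0.51 and −0.06 in truncated cells. Truncated replicate 1 lay above wild-type replicate 3 (−0.0648), and truncated replicate 3 (−0.0636) was just above it, so the groups overlapped. These averages describe the 6 arrays and were given no test.

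**Figure D5:**
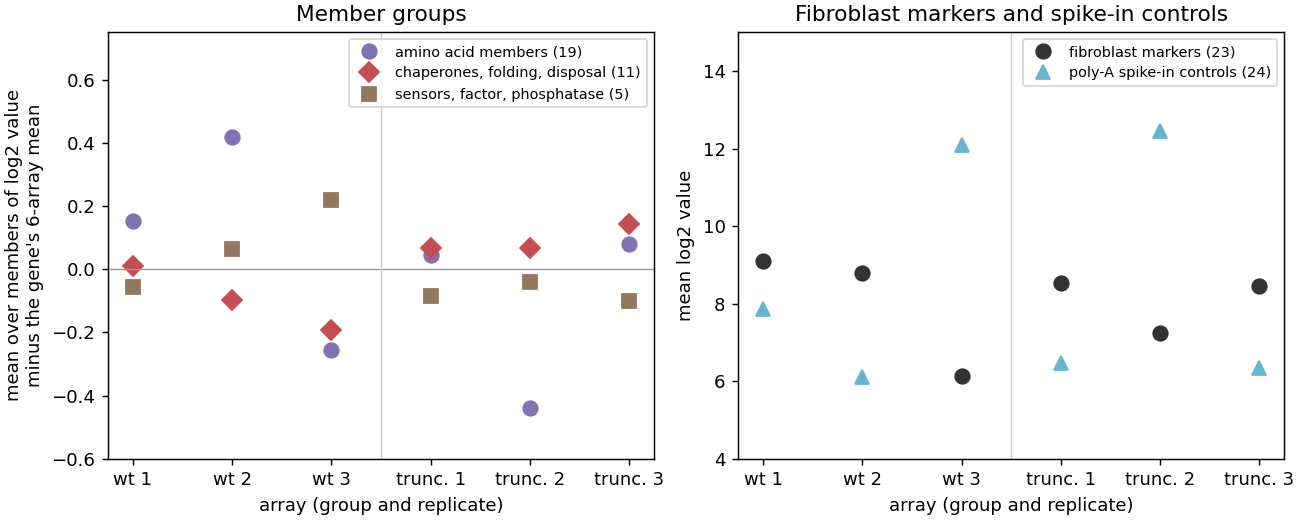
Left, the mean over members of each log2 value minus the gene's 6-array mean (y axis) on each array, for 19 amino acid members, 11 chaperone, folding and disposal genes and 5 sensor, factor and phosphatase genes. Right, the mean log2 value of 23 fibroblast markers and 24 spike-in controls on the same arrays; the amino acid mean is lowest on truncated replicate 2 (−0.44) and wild-type replicate 3 (−0.26), where the spike-in controls are highest.

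Other genes of these pathways were taken from lists. Of 21 further ATF4 targets measured, 2 rose and 0 fell in the limma fit. At an unadjusted p below 0.05, 3 were higher and 5 lower, where 11.9% and 13.1% of expressed genes were. The 2 that rose in the fit were 9.52% of the list, against 2.70% of all genes and 3.67% of expressed genes called higher. They were Slc7a1, another carrier of cationic amino acids, by 0.62 (SE 0.11; adjusted p = 0.0277), and Jdp2, a partner of the ATF and JUN factors, by 0.71 (SE 0.15; adjusted p = 0.0459). Slc7a1 was at 9.51, 9.53 and 9.31 in wild-type and at 10.12, 9.94 and 10.16 in truncated cells, apart on every array. The median of the list was −0.06, and the lowest difference was that of Gpt2, an alanine aminotransferase, at −0.86 (adjusted p = 0.156). None of 18 cytosolic tRNA synthetase genes passed in the limma fit (0 higher and 1 lower unadjusted), and their median was −0.07.

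In the list of the folate cycle, 1 of 9 measured genes rose and 1 fell, where 4.67% of all genes and 6.53% of expressed genes were called. Mthfd2l, the paralog of Mthfd2 in mitochondria, was at 5.78, 6.18 and 6.23 in wild-type and at 4.88, 4.93 and 4.75 in truncated cells. The groups were far apart, and the fall of 1.21 on the log2 scale (SE 0.14; 2.31-fold; adjusted p = 0.00779) brought its mean near the expression limit. Mtr, methionine synthase, rose by 0.51 (adjusted p = 0.0465).

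For eIF2, its kinases and its exchange factor eIF2B, 11 of 14 genes had a difference above 0, with a median of 0.19. None passed in the limma fit (3 higher and 0 lower unadjusted). Among expressed genes 48.2% had a difference above 0, and 11.9% were higher and 13.1% lower unadjusted. The gamma subunit of eIF2 is encoded by an X-linked and a Y-linked gene in the mouse. Eif2s3y, the Y-linked copy, was at 8.43, 8.60 and 8.69 in wild-type and at 3.76, 3.43 and 3.86 in truncated cells, below the expression limit in the latter (adjusted p = 4.76e-05). Eif2s3x, the X-linked copy, was at 10.70, 10.72 and 10.42 in wild-type and at 11.27, 10.997 and 11.14 in truncated cells. Those groups did not overlap, with a difference of 0.53 (limma adjusted p = 0.0658). The 374 expressed X-linked genes had a median difference of 0.47, and the part of this in Eif2s3x was not tested.

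Of the ER lists, 14 of 20 further folding factors and 16 of 24 genes of ER-associated degradation and translocation had a difference above 0, with medians of 0.09 and 0.10. None passed in the limma fit. Unadjusted, 2 were higher and 1 lower in the first list, and 3 and 2 in the second. Among expressed genes, 11.9% were higher and 13.1% lower at that level, and 48.2% had a difference above 0. Groups were apart in the higher direction for 2 of 20 and 3 of 24, against 13.7% of expressed genes. They were apart in the lower direction for 1 of 20 and 2 of 24, against 15.1%. The nearest to the threshold were Syvn1, the ubiquitin ligase HRD1 of the disposal pathway, at −0.39 (adjusted p = 0.0526), and Rcn1, a calcium-binding ER protein, at 0.60 (adjusted p = 0.0587). Among 11 partners of the sensors, 1 rose, against 2.70% of all genes and 3.67% of expressed genes called higher. It was Map3k5, the kinase ASK1 that acts below IRE1, which went from 4.97, 4.73 and 5.32 to 6.21, 6.55 and 6.58. The rise was 1.44 (SE 0.18), or 2.71-fold (limma adjusted p = 0.00927). All 3 truncated values were above all wild-type values, and the wild-type mean lay near the expression limit.

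Stress responses of other compartments were given for comparison. Of 12 cytosolic heat shock genes, 0 rose and 1 fell in the limma fit (1 and 2 unadjusted). It was Hspa1a, at −0.54 (limma adjusted p = 0.0357), below the expression limit on average. Over all genes 2.70% were called higher and 1.97% lower, and among expressed genes 3.67% and 2.86%. At an unadjusted p below 0.05, 11.9% of expressed genes were higher and 13.1% lower. None of 9 genes of mitochondrial folding and none of 9 NRF2 genes, the regulator of the oxidative response, passed in the limma fit (unadjusted, 1 lower and 0 of either direction). Their medians were 0.01 and 0.02, and that of the heat shock list was −0.02. The ER chaperone, folding and disposal members had a median of 0.30, and the further ER folding and degradation lists had 0.09 and 0.10.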

How the data were processed

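The deposited table held log2 expression values per probe set for 6 arrays; no source used here says how the authors summarised and normalised them, and that they are log2 was judged by their range. Of 45101 probe sets, 64 controls were left out and 45037 tested. Genes came from the platform annotation, checked through Entrez identifiers against RefSeq (GRCm38.p6; 0 symbols changed); 932 probe sets with several symbols and 9160 unnamed ones were used for no gene. Array medians lay between 4.80 and 4.86, so no further scaling was applied; the number of arrays limits the precision.

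Groups were compared in R 4.3.3 with limma 3.58.1 (lmFit, eBayes; two-sided, group as the only term), tested on simulated data. Members and lists were chosen with earlier results of these data known. All 35 members are named; array values are given for those called or with groups apart by at least 0.5, and for others chosen after their values were seen. Up to 3 called genes are named per further list, with other genes chosen after their values were seen. Motifs were searched in RefSeq promoter windows with Python 3.11.15.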

Additional observations from a re-analysis of the deposited data

How the results depend on the processing

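The 18 alternatives were the replicate block, quantile normalisation, median centring, dim genes or cross-hybridising probe sets left out, the mean of all probe sets, a trended and robust variance, array weights, spike-in level as a block, the low spike-in arrays alone, fibroblast markers as a covariate, autosomal genes alone, and each array left out. The number of arrays, 3 a group, limits all of them.

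Over all genes 850 were called; the count was 466 with the replicate block, 2057 with array weights, 1569 with spike-in level as a block, 2013 with the fibroblast covariate and 129 to 1191 with each array left out (510 without wild-type replicate 1, 241 without wild-type replicate 2, 129, 502 and 173 without truncated replicates 1, 2 and 3). Of the amino acid members none was called at first; the count was 1 with median centring, with dim genes left out and in the low spike-in arrays alone, 2 with array weights and with the fibroblast covariate, and 5 with the spike-in block. Of the ER members 1 was called; the count was 0 with the replicate block, 2 with array weights, with the spike-in block and with the fibroblast covariate, and 0 to 2 with each array left out. The cause of these moves was not tested. The median difference of the amino acid members stayed below 0, from −0.42 to −0.09 with each array left out. That of the ER members was 0.0907 in the mean of all probe sets, 0.0822 in the low spike-in arrays alone and −0.0487 to 0.0759 with each array left out.

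Of 620 member values under the alternatives, 26 had the opposite sign, in 9 members, none of them past the threshold. Slc7a11 was −0.0031 and Manf −0.0151 with median centring, Xbp1 0.0475 without cross-hybridising probe sets, Dnajc3 0.17 in the mean of all probe sets, and Cebpb −0.058, Ern1 0.0362 and Manf −0.0146 with array weights. In the low spike-in arrays alone Cebpb was −0.0447, Ern1 0.19 and Manf −0.0892. With each array left out, Ddit3 ranged from −0.061 to 0.38, Cebpb from −0.28 to 0.30, Shmt2 from −0.0513 to 0.42, Slc7a11 from −0.033 to 0.0689, Vldlr from −0.64 to 0.19, Ern1 from −0.21 to 0.11, Xbp1 from −0.37 to 0.0014, Dnajc3 from −0.14 to 0.066 and Manf from −0.12 to 0.14. The other 26 members kept their sign under every alternative that measured them.

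Deviations of same-numbered arrays correlated at 0.36, −0.41 and −0.15 for replicates 1, 2 and 3, so the numbers were not taken as pairs; with the replicate block Creld2 differed by 0.61 with an adjusted p of 0.0814, and 0 members were called.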
